A study of Mus musculus with 6 samples.

Results

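Oligodendrocytes are the glial cells that wrap axons in myelin. They arise from dividing precursors marked by the growth factor receptor Pdgfra, pass through a short newly formed stage marked by genes such as Gpr17 and Enpp6, and then switch on the abundant myelin proteins and the enzymes of myelin lipids. In the cerebellum many of them lie in the white matter, where they wrap the axons of Purkinje cells. The transcription factors Olig1, Olig2 and Sox10 stay on through the lineage, and Myrf starts the myelin programme.

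A set of 34 genes of this lineage was examined, 8 of them placed with precursors, 7 with newly formed cells and 19 with myelinating cells. A gene was measured where a probe was annotated to it alone, and its brightest such probe represented it. This gave 31 of the 34 genes, out of 18193 genes on the array with such a probe. The newly formed gene Neu4 and the myelinating genes Trf and Enpp2 were not analysed here. All 31 lay above the filter on dim signal (a log2 mean of 4.70), so none was lost to it.

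The samples were 3 from wild-type mice and 3 from Gb5-deficient mice, each on a single-colour array of its own. The labels give brain as the tissue, and the title of the series says cerebellum. Gb5, the product of Gnb5, is a G protein beta subunit of neurons that pairs with RGS proteins of the R7 family. Strain, age and the deleted part of the gene are not given in the sources used here, and the labels speak of littermates matched for age and sex without saying which mice were litter mates. The comparison asks whether genes of each oligodendrocyte stage differ in signal when Gb5 is missing.

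Gnb5 itself had a mean log2 signal of 8.67 ± 0.15 (SD, n = 3) on wild-type arrays, and of 3.32 ± 0.34 (SD, n = 3) where Gb5 was missing. Array medians lay between 6.48 and 6.57. Gb5-deficient array 6 differed from the other 5 in Xist (8.22, against 11.17 to 11.64), in the Y-linked Eif2s3y (11.80, against 3.19 to 3.43) and in the gap between the 3′ and 5′ Gapdh control probes (1.58, against 1.03 to 1.14). The first pair goes against the sex matching that the labels state. Values of lineage genes that moved by more than 1.5 times without that array are given both ways. The cerebellar genes Calb1 and Pcp2 of Purkinje cells averaged 12.98 and 12.62 in wild type and 12.95 and 12.68 in Gb5-deficient arrays. No list of other cell types (choroid plexus, meninges, vessels, astrocytes, microglia, Purkinje cells, granule cells and brainstem) held a gene that passed the test.

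No lineage gene passed the test. Of 31 genes, 0 had an adjusted p under 0.05 (limma with Benjamini-Hochberg adjustment over 14067 genes), against 0.0355% of all genes tested (0.0284% lower and 0.00711% higher), and the smallest adjusted p was 0.479, for Mal. At an unadjusted p under 0.05, 6 of the 31 were lower in Gb5-deficient arrays, against 2.86% of all genes, and 0 were higher, against 5.7% of all genes. The 6 were Mal, Mobp, Ermn, Ugt8a and Mog of the myelinating stage and Bmp4 of the newly formed stage. In 5 of the 31 all Gb5-deficient arrays lay below all wild-type arrays, against 4.82% of all genes. In 0 of the 31 they all lay above, against 10.1% of all genes. Those 5 genes, Mal, Mobp, Ermn, Mog and Cnp, were all of the myelinating stage. These are RNA signals of whole tissue, in which fewer cells of a type and less RNA per cell cannot be told apart.

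No test was made between the 3 stages. The median log2 fold change, Gb5-deficient minus wild type, was 0.02 for the 8 measured precursor genes, with 3 genes below 0. With array weights it was -0.05. Olig1, Olig2, Sox10 and Nkx2-2 are lineage factors, and without them the precursor median was -0.03, with 2 of 4 genes below 0. Newly formed genes (6 measured) had a median of -0.09, with 5 below 0, and myelinating genes (17 measured) a median of -0.08, with 12 below 0. Over all 14067 genes the median was 0.03 and 43.3% of genes lay below 0. Among the 2576 genes brighter than the median myelinating gene 59.9% lay below 0, so a share of lower values is larger among bright probes in general. In that bright range 8 of 12 lineage genes lay below 0, and 4 of the 12 had an unadjusted p under 0.05 and lower signal, against 2.6% of all genes there. The groups of 4 of the 12 did not overlap, with Gb5-deficient arrays lower, against 5.47% of all genes there.

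**Figure D1:**
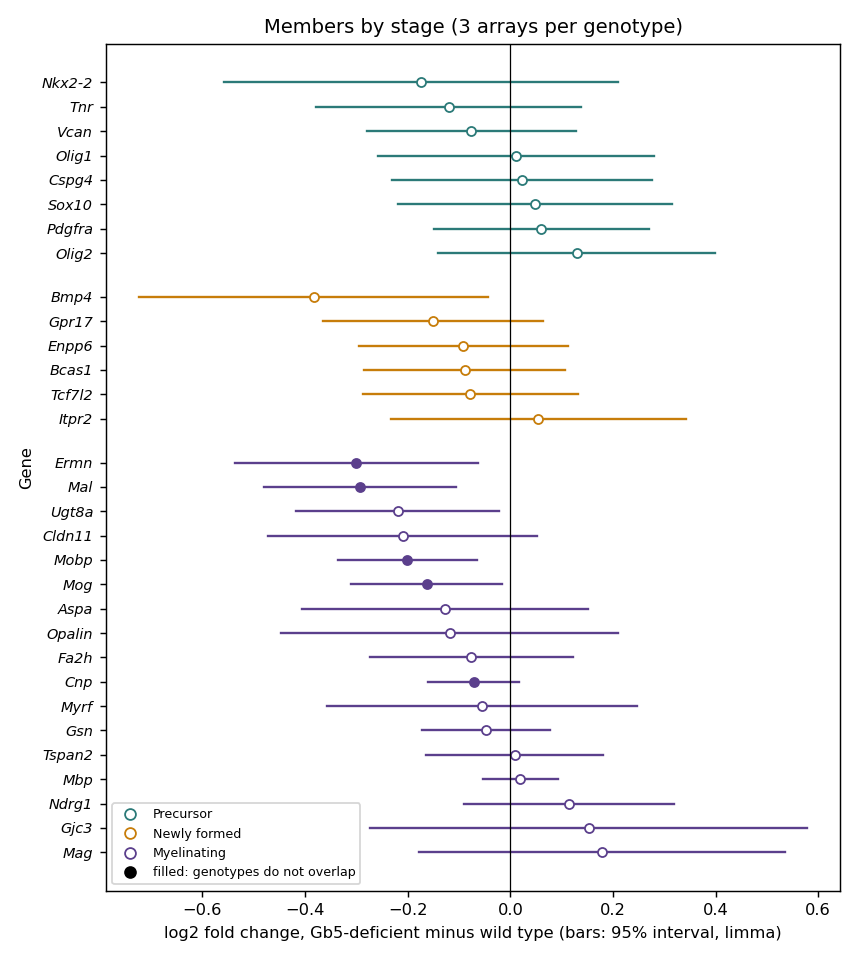
Log2 fold change (x axis, Gb5-deficient minus wild type) of each of the 31 measured genes (y axis), grouped by stage, with the 95% interval of the limma fit on 3 arrays per genotype. Filled points mark the 5 genes whose genotypes do not overlap, all of the myelinating stage; the 8 precursor genes lie on both sides of 0.

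On the probes that represented the genes, the 95% intervals of all 31 lay inside a doubling and a halving of signal, and those of 26 lay inside ± 0.5 on the log2 scale. The interval that reached lowest was that of Bmp4, at -0.72, and the one that reached highest was that of Gjc3, at 0.58. A dimmer probe of Pdgfra stood at 0.93 (SE 0.24) and the mean of its probes at 0.41, so these intervals do not cover other probes of a gene. The median SE of the log2 fold change was 0.09 over the 31 genes and 0.12 over all genes tested.

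Genes of the myelin sheath held the lowest p-values. Mal, a proteolipid of compact myelin membrane, read 12.62, 12.52 and 12.56 (log2 signal) on wild-type arrays 1, 2 and 3, and 12.38, 12.35 and 12.08 on Gb5-deficient arrays 4, 5 and 6. Every Gb5-deficient array lay below every wild-type array, and array 6 was the lowest. Its log2 fold change was -0.29 (SE 0.08; limma adjusted p = 0.479), a signal difference of -18.3%, and -0.20 without array 6. Mobp, a small basic protein of the myelin sheath, read 12.32, 12.46 and 12.47 in wild type, against 12.23, 12.23 and 12.19 in Gb5-deficient arrays. The groups did not overlap, and the Gb5-deficient arrays lay close together. Its log2 fold change was -0.20 (SE 0.06; limma adjusted p = 0.518), a signal difference of -13.0%, and -0.19 without array 6. Ermn, which encodes the cytoskeletal protein ermin of oligodendrocytes, read 10.61, 10.63 and 10.59 in wild type, against 10.49, 10.31 and 10.13 in Gb5-deficient arrays. The wild-type values were nearly alike and the Gb5-deficient values spread downwards. Its log2 fold change was -0.30 (SE 0.10; limma adjusted p = 0.553), the lowest value of the myelinating stage, and -0.21 without array 6.

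Mog, a glycoprotein of the outer myelin surface, read 11.96, 11.98 and 12.02 in wild type, against 11.84, 11.89 and 11.73 in Gb5-deficient arrays. The groups did not overlap, and the log2 fold change was -0.16 (SE 0.06; limma adjusted p = 0.574), or -0.12 without array 6. Cnp, a myelin-associated phosphodiesterase of cyclic nucleotides, also had groups that did not overlap, at 13.61, 13.58 and 13.58 against 13.57, 13.48 and 13.50. Its log2 fold change was only -0.07 (SE 0.04; limma adjusted p = 0.612), so the separation rests on a small spread. Mbp, the myelin basic protein that compacts the sheath, read 13.70, 13.70 and 13.73 in wild type, against 13.73, 13.72 and 13.75 in Gb5-deficient arrays. Its log2 fold change was 0.02 with a 95% interval from -0.05 to 0.09. That interval does not cover the dimmer probes of Mbp, which ran from -0.31 to 0.12. Whether so bright a signal limits the difference that can be read was not tested. Cldn11, the tight junction protein of myelin, read 11.98, 11.75 and 11.67 against 11.81, 11.44 and 11.53, and the groups overlapped (log2 fold change -0.21, 95% interval from -0.47 to 0.05). Mag, an adhesion protein that faces the axon, had the highest value of the stage, 0.18, with an interval from -0.18 to 0.53.

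**Figure D2:**
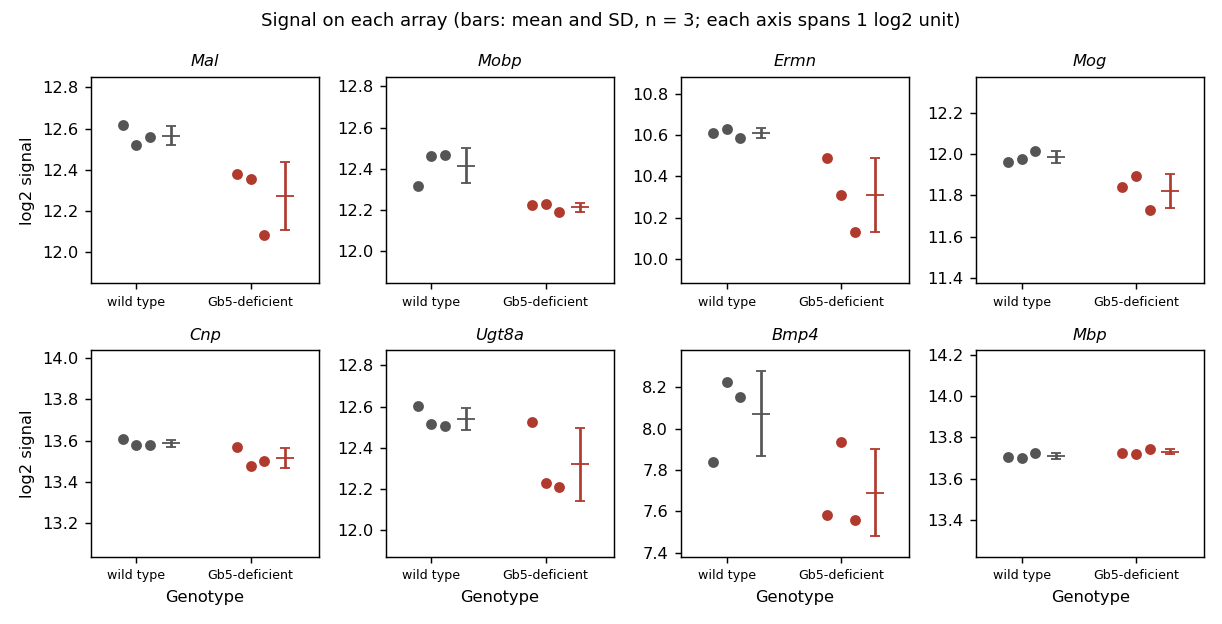
Log2 signal (y axis; each panel spans 1 log2 unit) on each array by genotype (x axis) for 8 genes, with mean and SD (n = 3). In Mal, Mobp, Ermn, Mog and Cnp the genotypes do not overlap; in Ugt8a and Bmp4 a Gb5-deficient array lies among the wild-type arrays, and in Mbp both genotypes lie between 13.70 and 13.75.

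The promoters of 3 of the genes whose groups did not overlap are shown, Mal and Mobp for the lowest p-values and Cnp for its matches to letters that lineage factors recognise. Each is the stretch of 250 bases before the gene's start, from RefSeq on build GRCm38.p6, 5′ to 3′ on the gene's strand. Capitals mark ACAAAG, the core that Sox factors such as Sox10 recognise and that shares CAAAG with the TCF motif, and CTGGCAC, a form of the Myrf motif, on either strand. CAGCTG, an E-box that reads the same on both strands and fits factors such as Olig2, was also searched.
Mobp (chr9:120149492-120149741, + strand): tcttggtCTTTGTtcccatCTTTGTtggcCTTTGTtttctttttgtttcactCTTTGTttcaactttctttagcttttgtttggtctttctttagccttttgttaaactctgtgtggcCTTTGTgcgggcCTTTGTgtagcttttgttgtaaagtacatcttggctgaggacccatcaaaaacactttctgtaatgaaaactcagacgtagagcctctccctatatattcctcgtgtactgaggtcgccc
Cnp (chr11:100574689-100574938, + strand): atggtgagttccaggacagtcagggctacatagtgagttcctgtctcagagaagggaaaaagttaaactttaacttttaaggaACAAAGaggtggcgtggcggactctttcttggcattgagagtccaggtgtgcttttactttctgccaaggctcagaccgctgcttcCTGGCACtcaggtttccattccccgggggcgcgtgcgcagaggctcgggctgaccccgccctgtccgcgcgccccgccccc
Mal (chr2:127656696-127656945, - strand): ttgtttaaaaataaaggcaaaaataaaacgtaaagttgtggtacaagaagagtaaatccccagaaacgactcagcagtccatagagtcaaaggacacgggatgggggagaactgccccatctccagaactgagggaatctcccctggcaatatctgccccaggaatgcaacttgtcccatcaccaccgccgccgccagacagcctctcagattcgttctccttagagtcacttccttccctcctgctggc

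The Mobp window held 6 matches of ACAAAG, all on the opposite strand. It was the only 1 of 32851 promoter windows of this length with 6 or more, a cutoff equal to its own count. The Cnp window held ACAAAG and CTGGCAC 1 time each, a pair found in 0.691% of all windows. The Mal window held none of the 3. Promoters of 24 of the 34 genes were in the table, in 30 windows. ACAAAG was in 8 of the 30, against 16.5% of all windows, CTGGCAC in 3, against 4.19%, and CAGCTG in 3, against 13%. These windows belonged to 7, 2 and 2 genes in turn. A match is a description of letters and says nothing of binding, and Mal, with no match, had the smallest p of the set. Mobp and Cspg4 lie on chromosome 9, which also carries Gnb5, with 44.8 Mb and 18.4 Mb between their starts and that of Gnb5. Their log2 fold changes were -0.20 and 0.02.

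Genes of myelin lipids and metabolism gave values within the range of those of the sheath genes. Ugt8a, the enzyme that makes galactosylceramide, read 12.60, 12.51 and 12.51 in wild type, against 12.53, 12.23 and 12.21 in Gb5-deficient arrays. Array 4 lay among the wild-type arrays and arrays 5 and 6 below them (log2 fold change -0.22, SE 0.09; limma adjusted p = 0.574). Fa2h, which hydroxylates the fatty acids of these lipids, had a value of -0.08, and Aspa, which splits N-acetylaspartate, a value of -0.13. Among the other myelinating genes Opalin, a membrane glycoprotein of oligodendrocytes, stood at -0.12, Myrf at -0.06 and the actin-severing Gsn at -0.05. The tetraspanin Tspan2 stood at 0.01, Ndrg1 at 0.11 and the gap junction gene Gjc3 at 0.15. The intervals of these 8 genes, Ugt8a left aside, all included 0. Gsn and Ndrg1 were listed as also expressed by other cells. Without them the median of the myelinating genes was -0.12, with 11 of 15 below 0.

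Among newly formed genes Bmp4, a secreted ligand that restrains oligodendrocyte maturation, had the lowest value of all 31 genes. It read 7.84, 8.23 and 8.16 in wild type, against 7.58, 7.93 and 7.56 in Gb5-deficient arrays, and array 5 lay above wild-type array 1. Its log2 fold change was -0.38 (SE 0.15; limma adjusted p = 0.574), a signal difference of -23.3%, and -0.32 without array 6. The receptor gene Gpr17, a brake on maturation, read 10.06, 10.26 and 10.28 against 10.01, 10.09 and 10.05. Its groups overlapped through wild-type array 1 (log2 fold change -0.15, 95% interval from -0.37 to 0.06). The choline phosphodiesterase Enpp6 stood at -0.09, Bcas1 at -0.09, the Wnt pathway factor Tcf7l2 at -0.08 and the calcium release channel Itpr2 at 0.05. Bmp4, Tcf7l2 and Itpr2 were listed as also expressed by other cells, whose share of these signals was not tested.

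Precursor genes lay near 0. Pdgfra, the receptor for the precursors' main mitogen, read 10.96, 11.10 and 11.16 in wild type, against 11.02, 11.26 and 11.12 in Gb5-deficient arrays. The groups overlapped throughout (log2 fold change 0.06, 95% interval from -0.15 to 0.27). The proteoglycan Cspg4, known as NG2, stood at 0.02, the matrix proteoglycan Vcan at -0.08 and the matrix glycoprotein Tnr at -0.12. Of the lineage factors, Olig2 stood at 0.13, Sox10 at 0.05, Olig1 at 0.01 and Nkx2-2 at -0.17. Nkx2-2 had the widest interval of the stage, from -0.56 to 0.21, with single arrays of 8.83, 9.47 and 8.98 in the Gb5-deficient group. Its value was -0.04 without array 4 and -0.36 without array 5. Pdgfra, Cspg4 and Vcan are also expressed by fibroblasts or pericytes, and Tnr too was listed as also expressed by other cells. Every precursor gene besides the lineage factors was thus so listed. The share of such cells in these signals was not tested.

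Precursor and newly formed genes shared an order of arrays within a genotype. Gb5-deficient array 5 was the highest of its group in 13 of these 14 genes, against 39.3% of all genes tested. Gb5-deficient array 4 was the lowest of its group in 10 of the 14, against 37% of all genes, and wild-type array 1 the lowest of its group in 11, against 45.4%. The mean deviation of the precursor genes from each gene's own mean was -0.09, 0.03 and 0.07 (log2) on wild-type arrays 1, 2 and 3. On Gb5-deficient arrays 4, 5 and 6 it was -0.10, 0.13 and -0.05. The spread inside a genotype was thus larger than the difference between genotypes. Olig1 shows it, with 11.50, 11.65 and 11.83 in wild type and 11.51, 11.89 and 11.61 in Gb5-deficient arrays.

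Myelinating genes followed another order of arrays. Gb5-deficient array 6 was the lowest of its group in 9 of the 17, against 29.9% of all genes, and array 4 the highest in 8, against 30.2%. Array 6 was the lowest of all 6 arrays in 8 of the 17, against 17.9% of all genes. Their mean deviation was 0.06, -0.0041 and 0.07 on the wild-type arrays and -0.0026, -0.01 and -0.11 on Gb5-deficient arrays 4, 5 and 6. The signals of the 17 genes summed on each array came to 15.96 to 15.99 in wild type and 15.84 to 15.93 in Gb5-deficient arrays (log2 of the sum), and did not overlap. Sums of endothelial and pericyte markers (9 measured, 3 below 0) did not overlap either, at 13.01 to 13.06 and 12.91 to 13.00. Nor did those of 27 oligodendrocyte genes outside the set, at 15.75 to 15.80 and 15.64 to 15.73. A sum is weighted towards bright genes. By mean deviation, in which each gene counts alike, the genotypes overlapped for each of these lists. For the 27 genes it was 0.05, -0.04 and 0.06 on the wild-type arrays and -0.03, 0.10 and -0.14 on Gb5-deficient arrays 4, 5 and 6. The sums of the remaining lists of other cell types overlapped. Without array 6, the array that also stood apart in the Gapdh control probes, 2 of the 31 genes kept an unadjusted p under 0.05 with lower signal, Mobp and Mal, against 1.61% of all genes. These 2 were in that count without any 1 of the 6 arrays. Other values moved by more than 1.5 times without array 6. They were then -0.0395 for Tnr, 0.0400 for Olig1, 0.0199 for Sox10, -0.12 for Nkx2-2 and -0.0075 for Tcf7l2. Of the myelinating genes, Opalin turned to 0.0076 and Aspa stood at -0.0439, Myrf at -0.12 and Mbp at 0.0120. Gjc3 then stood at 0.25, Tspan2 at 0.0506 and Ndrg1 at 0.0497. Array 6 also stood apart in Xist and Eif2s3y, so RNA quality and sex cannot be told apart in its values. The part of either was not tested.

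The number of lineage genes that stood apart differed with the array left out, and so did the share of all genes. At an unadjusted p under 0.05 with lower signal there were 4 of the 31 without wild-type array 1 (1.99% of all genes), 2 without array 2 (2.6%) and 3 without array 3 (2.15%). There were 6 without Gb5-deficient array 4 (6.59%) and 7 without array 5 (3.28%), which brought in Nkx2-2 and Bcas1. Groups with Gb5-deficient arrays below did not overlap in 8 genes without wild-type array 1 (8.19% of all genes), in 5 without array 2 (9.75%) and in 5 without array 3 (8.01%). The counts were 9 without Gb5-deficient array 4 (14.1%), 11 without array 5 (9.8%) and 6 without array 6 (6.47%). Mal, Mobp, Ermn, Mog and Cnp were in each of these 6 counts. This was fixed in advance, since groups that do not overlap over all arrays cannot overlap with an array left out. Genes with Gb5-deficient arrays all above numbered 1 without wild-type array 1 (12.4% of all genes), 1 without array 2 (18%) and 2 without array 3 (16.1%). They numbered 1 without Gb5-deficient array 4 (22.4%), 0 without array 5 (16%) and 0 without array 6 (12.8%). By the mean of each gene's probes the number was 1, against 10.4% of all genes. The gains without array 5 were precursor and newly formed genes, among them Bmp4, Gpr17 and Enpp6.

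**Figure D3:**
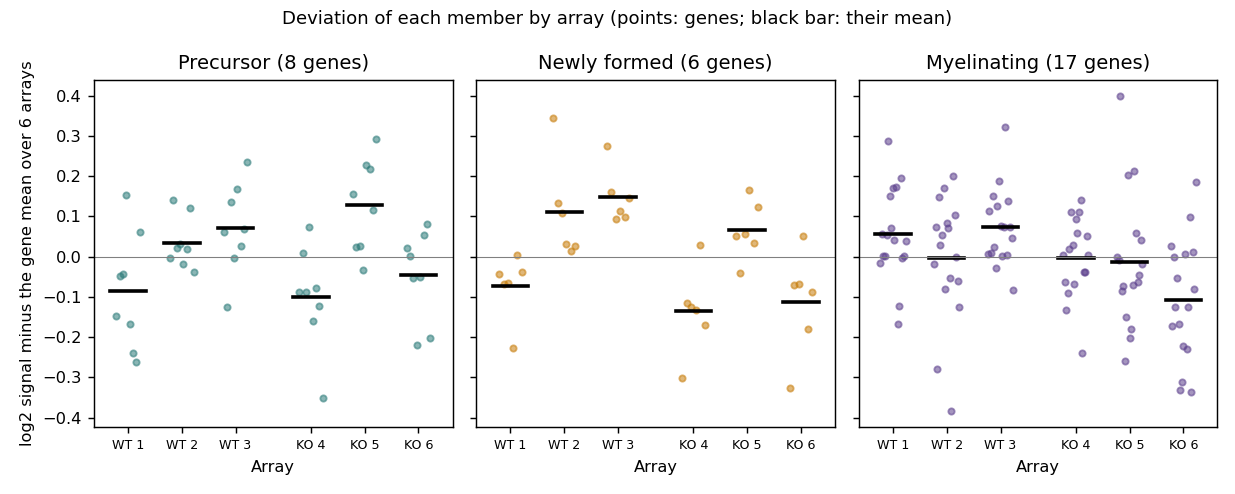
Log2 signal of each gene minus its mean over the 6 arrays (y axis), by array (x axis; WT wild type, KO Gb5-deficient), with 1 panel per stage; points are genes and black bars their mean. The mean of precursor and of newly formed genes is highest in its genotype on array 5, while that of myelinating genes is lowest on array 6, at -0.11.

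Signals of other cells also differed between arrays. Granule cell markers (9 measured) had mean deviations of 0.08, -0.04 and -0.12 on the wild-type arrays and 0.17, -0.19 and 0.10 on the Gb5-deficient arrays, highest on array 4 and lowest on array 5. That order is opposite to that of the precursor genes on arrays 4 and 5. Of the 9 granule cell markers, 2 had an unadjusted p under 0.05 and higher signal, Grin2c (0.51) and Fat2 (0.35), against 5.7% of all genes. The groups of both did not overlap, against 10.1% of all genes, and 0 of the 9 were lower by either measure. Microglia markers (9 measured) had means of -0.15, 0.11 and 0.09 on arrays 4, 5 and 6, also lowest on array 4 and highest on array 5. Brainstem markers (5 measured) had means of -0.07, 0.16 and -0.18, with array 5 the highest of its group in 5 of 5 and array 6 the lowest in 4. Choroid plexus markers (9 measured, 7 below 0) summed to 13.59 to 14.12 in wild type and 12.17 to 13.98 in Gb5-deficient arrays (log2). Markers of meninges and fibroblasts (9 measured, 7 below 0) summed to 13.69 to 13.75 and 13.50 to 13.70. Of these 9, 3 had an unadjusted p under 0.05 and lower signal, Ogn (-0.56), Fmod (-0.38) and Igf2 (-0.28), and the groups of 2 did not overlap. As shares these are 33.3% and 22.2%, beside 29.4% for both among the myelinating genes. Astrocyte and Bergmann glia markers (10 measured, 7 below 0) summed to 15.39 to 15.48 and 15.39 to 15.47. The part of such cells in the lineage values was not tested.

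Several genes had more than 1 probe, and these were compared with the probe that represented the gene. Of 71 lineage probes above the filter, 0 had an adjusted p under 0.05 when each probe was tested (limma), against 0.0308% of all probes (0.027% lower and 0.00385% higher). At an unadjusted p under 0.05, 12 were lower, against 3.25% of all probes, and 2 higher, against 5.13%. These 2 counts come from a limma fit of every probe without the filter, and the shares from a fit of the probes above it. Of the 71 probes 45 lay below 0, against 45.9% of all probes. In 10 of the 71, all of myelinating genes, every Gb5-deficient array lay below every wild-type array, against 5.39% of all probes. In 4 of the 71 every Gb5-deficient array lay above, against 9.49% of all probes. Mobp had 5 probes, with log2 fold changes of -0.20, -0.08, -0.28, -0.38 and -0.46 from the brightest to the dimmest, and the groups did not overlap in 4 of them. The dimmest Mobp probe read 8.77, 8.94 and 8.90 in wild type, against 8.52, 8.33 and 8.37 in Gb5-deficient arrays. Both probes of Ermn (-0.30 and -0.39) and both of Mal (-0.29 and -0.20) had groups that did not overlap. Probes of 1 gene are repeat measurements of the same RNA samples and not further replicates.

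Other genes were less uniform across probes. The 8 probes of Mbp ran from -0.31 to 0.12, and the 4 brightest from -0.05 to 0.04. Tspan2 stood at 0.01 on the probe that represented it and at -0.46 and -0.18 on its others, and its value by the mean of its probes was -0.21. All 3 probes of Cnp were below 0, as were all 4 of Gsn above the filter, while all 5 of Ndrg1, a gene of myelinating cells that hypoxia induces, were above 0.

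**Figure D4:**
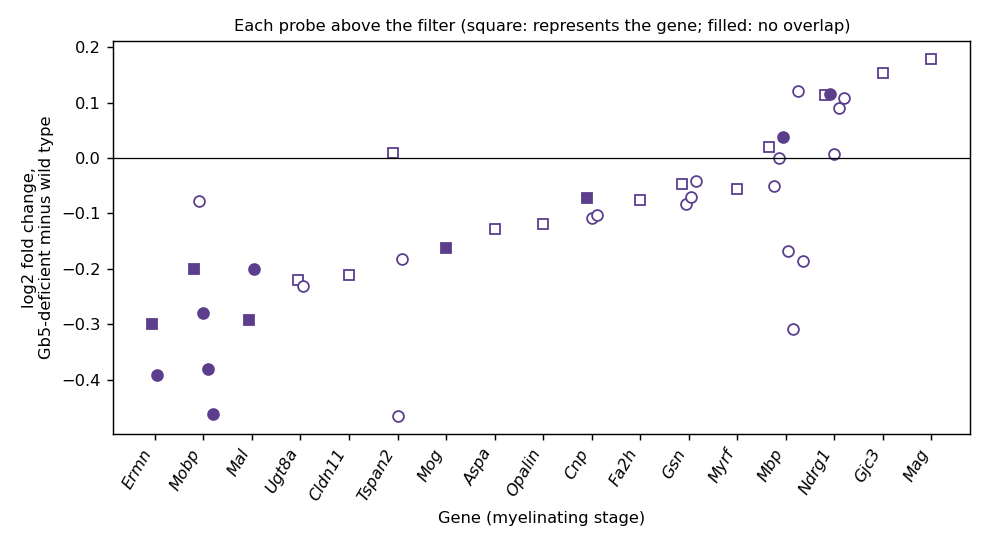
Log2 fold change (y axis) of each of the 42 probes of myelinating genes above the filter, by gene (x axis); squares mark the probe that represents the gene and filled symbols probes whose genotypes do not overlap. All probes of Ermn, Mobp, Mal, Ugt8a, Cnp and Gsn lie below 0, those of Mbp lie on both sides, and those of Ndrg1 lie above; 1 filled probe of each of these last genes is higher in Gb5-deficient arrays.

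Genes outside the set were read from 3 further lists, of other oligodendrocyte genes, of myelin lipid synthesis and of signals and regulators of the lineage. The share of other cells in their signals was not tested. For other oligodendrocyte genes (27 of 30 measured) the median stood at -0.05 on the log2 scale, with 19 below 0 and none passing in either direction. The median was -0.13 with array weights, -0.10 without wild-type array 2, -0.09 without Gb5-deficient array 5 and -0.0188 without array 6. At an unadjusted p under 0.05, 2 of the 27 were lower, against 2.86% of all genes, and 1 higher, against 5.7%. Cryab, a small heat shock protein of oligodendrocytes and astrocytes, read 12.16, 12.10 and 11.98 in wild type, against 11.40, 11.70 and 11.75 in Gb5-deficient arrays. Its groups did not overlap (log2 fold change -0.46, SE 0.10; limma adjusted p = 0.357), and it was -0.53 without array 6. Tmem125, a membrane protein gene, went the other way, from 9.52, 9.83 and 9.79 to 9.94, 10.13 and 10.03 (log2 fold change 0.32, SE 0.11; limma adjusted p = 0.553). Its groups did not overlap either. Of the 27 genes, 3 had groups without overlap and Gb5-deficient arrays lower, against 4.82% of all genes. In 2 the Gb5-deficient arrays were higher without overlap, against 10.1%.

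Myelin lipid synthesis genes (20 of 22 measured) had a median of 0.02, with 8 below 0 and none passing. The sterol and fatty acid regulator Srebf1 stood at 0.71 (SE 0.17; limma adjusted p = 0.402), with 8.29, 8.51 and 8.40 in wild type and 8.81, 9.02 and 9.49 in Gb5-deficient arrays. Sptlc2, a subunit of the first enzyme of sphingolipid synthesis, stood at 0.55 (SE 0.16; limma adjusted p = 0.511). The groups of both genes did not overlap, array 6 was the highest for both, and without it the values were 0.52 and 0.43.

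Signals and regulators of the lineage (32 of 34 measured) had a median of -0.05, with 22 below 0 and none passing. The median was -0.0249 without wild-type array 3, -0.085 without Gb5-deficient array 5 and -0.0172 without array 6, and -0.0207 by the mean of a gene's probes. Zeb2, a repressor needed for myelination, had the lowest value, -0.59 (SE 0.20; limma adjusted p = 0.553), and array 4 lay among the wild-type arrays; without array 6 it was -0.47. Lingo1, an inhibitor of differentiation that neurons also express, had the highest, 0.44 (SE 0.14; limma adjusted p = 0.541), or 0.35 without array 6. Its groups did not overlap. Of the 32 genes, 4 had groups without overlap and Gb5-deficient arrays lower, against 4.82% of all genes. In 2 the Gb5-deficient arrays were higher without overlap, against 10.1%. Of genes named after their values were seen, the neuregulin receptor Erbb3 read 9.82, 9.60 and 9.96 in wild type, against 9.44, 9.54 and 9.24 in Gb5-deficient arrays. Its groups did not overlap (log2 fold change -0.39, SE 0.13; limma adjusted p = 0.553), and the value was -0.30 without array 6. The Notch ligand Jag1 stood at -0.29 (SE 0.08; limma adjusted p = 0.472), also without overlap. Pdgfa, the ligand of Pdgfra, stood at -0.09, or -0.0281 without array 6.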

How the data were processed

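The authors' deposited table holds log2 signals, 1 per probe and array, for 6 arrays; RMA and Partek are the tools named, per the submitters' processing notes, and versions are not given in the sources used here. RMA corrects background, quantile-normalizes arrays and summarises probe sets, so a change shared by all genes would not show. Per the labels' protocols RNA was extracted with Trizol.

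Probes were named from the platform annotation, with symbols updated through a RefSeq table; 34945 of 45101 probes had 1 gene, 932 several and 9160 none, and 64 were controls. Each gene was represented by its probe of highest mean, and genes above the 30th percentile of probe means were kept (14067 of 18193). Gb5-deficient was compared with wild type by limma 3.58.1 in R 4.3.3 (eBayes with trend, two-sided, Benjamini-Hochberg over 14067 genes, threshold 0.05), tested on simulated data. SE and 95% intervals come from this fit. The labels speak of littermate cohorts matched for age and sex and do not say whether each array is a separate mouse, so p-values measure only the spread between these samples, which may be technical. The number of arrays limits precision, and permutation of 3 against 3 cannot give a p under 0.1.

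The members and lists were chosen with earlier results of these data known. Stages were assigned from general knowledge of the lineage. Named genes were all measured members and, of each further list, the 2 with the largest change; of marker lists the rule takes the 2 brightest, of which those of Purkinje cells are printed. Any further gene was picked with its values in view. Alternatives were other filters, normalizations, probe choices, variance models, thresholds, stage definitions and each array left out.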

Additional observations from a re-analysis of the deposited data

How the results depend on the processing

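No gene of the set passed under any filter, normalization, probe choice, variance model or array left out that was tried, nor at an adjusted p of 0.1; 6 had an unadjusted p under 0.05. The count of genes with all Gb5-deficient arrays below wild type was 5 to 11 with each array left out. Fewer arrays make separation easier, and the count could not fall below the 5 found with all arrays. It was 8 without wild-type array 1, 9 without Gb5-deficient array 4 and 11 without Gb5-deficient array 5. All genes together gave 8.19%, 14.1% and 9.8% there. The count above wild type was 0 to 2 with each array left out, 1 by the mean of a gene's probes and 4 of 71 with every probe read; over all features the shares were 12.4% to 22.4%, 10.4% and 9.49%. The median log2 fold change of myelinating genes was -0.13 by the mean of a gene's probes. Medians with each array left out ran from -0.07 to 0.06 for precursor, from -0.16 to -0.06 for newly formed, from -0.11 to -0.07 for myelinating and from -0.0183 to 0.0483 for myelin lipid synthesis genes.

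Some genes changed sign, among them Gjc3, at 0.15 in the main comparison, and Opalin, at -0.12. By the mean of probes the genes that changed sign were Cspg4 (-0.0496), Mbp (-0.0665), Gjc3 (-0.0375) and Tspan2 (-0.21). With array medians subtracted they were Cspg4 (-0.0031), Olig1 (-0.0141), Mbp (-0.0059) and Tspan2 (-0.0169), and with a second quantile normalization Cspg4 (-0.0059). With array weights they were Olig1 (-0.10), Sox10 (-0.0053), Itpr2 (-0.0263), Gjc3 (-0.0627) and Tspan2 (-0.0285). With each array left out, values ran from -0.0031 to 0.12 for Pdgfra, -0.0345 to 0.10 for Cspg4, -0.10 to 0.10 for Olig1, -0.0707 to 0.12 for Sox10, -0.0448 to 0.14 for Itpr2, -0.25 to 0.0076 for Opalin, -0.00078 to 0.35 for Gjc3, -0.13 to 0.0504 for Myrf and -0.0198 to 0.0506 for Tspan2. The cause was not tested. No paired analysis was possible because the genotypes share no replicate numbers.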

Other observations

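A dim probe of Pdgfra and one of Itpr2 had larger values in the same direction than the probes that represented these genes. The Pdgfra probe read 6.05, 6.69 and 6.92 in wild type, against 7.12, 7.56 and 7.77 in Gb5-deficient arrays, a log2 fold change of 0.93 (limma adjusted p = 0.457 when each probe above the filter was tested), while the representing probe stood at 0.06. The Itpr2 probe read 5.76, 6.17 and 6.14 against 6.30, 6.56 and 6.96, a log2 fold change of 0.58 (limma adjusted p = 0.547), while the representing probe stood at 0.05. In both, every Gb5-deficient array lay above every wild-type array and array 6 was the highest.

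Trf, the iron carrier transferrin that oligodendrocytes make, had a probe annotated to it and to Srprb together, which was left out of the comparison. It read 11.14, 11.64 and 11.54 in wild type, against 11.33, 11.09 and 11.10 in Gb5-deficient arrays, and the groups overlapped through wild-type array 1.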
